A study of Mus musculus with 12 samples.

Results

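Transcripts of mouse embryonic fibroblasts kept for 48 h in DMBA were compared with those of the same genotypes kept for 24 h, without reference to vehicle-treated cells. The comparison used 8 of the series' 12 arrays, chosen by their titles: 4 arrays at 48 h and 4 at 24 h, 1 for each of 4 genotypes. The genotypes, in the order used below, were WT (Sting +/+ Trex1 +/+), TKO (Sting +/+ Trex1 -/-), SKO (Sting -/- Trex1 +/+) and STKO (Sting -/- Trex1 -/-). All were C57BL6/129Sv cells from E13.5 embryos, and every culture in the comparison had received DMBA at 20 µg/ml, so that what 48 h and 24 h share as a response to DMBA does not appear in the differences. Each array was hybridised with biotin-labelled RNA on an Illumina MouseWG-6 bead chip, on which a probe reads 1 transcript sequence. With 1 array per genotype and time, and no separate embryos or cultures named, the p-values reflect how far 4 within-genotype differences scatter, which may be technical. Hours in DMBA and hours in culture cannot be told apart.

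DMBA (dimethylbenz[a]anthracene) is a polycyclic aromatic hydrocarbon carcinogen. It binds the aryl hydrocarbon receptor, a ligand-activated transcription factor that induces enzymes of its own metabolism, among them the cytochrome P450 Cyp1b1, and the oxidised products bind DNA. Reactive products also release NRF2 from its inhibitor KEAP1, after which NRF2 binds antioxidant response elements and raises enzymes of glutathione synthesis, thiol repair and conjugation. DNA damage activates p53, which raises cell cycle inhibitors, and DNA that reaches the cytosol is read by cGAS and STING unless the exonuclease TREX1 removes it.

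The targeted transcripts followed the genotype labels at both times. Sting1 read 7.99 and 8.04 (log2 level) in WT and TKO at 48 h, against 8.11 and 8.18 at 24 h. In SKO and STKO it read 6.07 and 5.99 at 48 h, against 5.58 and 5.72 at 24 h, where it was not detected. Trex1 read 9.52 and 8.39 in WT and SKO at 48 h, against 9.17 and 8.36 at 24 h, and in TKO and STKO it read 6.57 and 7.25 at 48 h, against 6.98 and 6.56 at 24 h. Neither transcript changed with time (adjusted p = 0.612 and adjusted p = 0.592 in limma). All 12 fibroblast markers were detected on every array and 0 of them changed. The arrays held 15662 to 16785 detected probes, and log2 levels correlated at 0.928 to 0.984 between arrays. The Y-linked Eif2s3y read 9.41 at 48 h and 9.26 at 24 h in WT, against 4.42 to 4.53 on the other 6 arrays, so the sex of a culture also cannot be told apart from its genotype. In these bulk samples, fewer cells of a type and less RNA per cell cannot be told apart either.

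Between 24 and 48 h, 589 of 9767 tested genes rose and 469 fell at a Benjamini-Hochberg adjusted p under 0.05 in limma, which is 6.03% and 4.80% of the genes tested. Every called gene moved the same way in 4 of 4 genotypes. Among all tested genes, 37.1% did so. A call from 4 differences nearly requires a shared direction, so the agreement among called genes is not separate evidence. The median change was 1.65-fold among the genes that rose and 1.60-fold among those that fell, with 126 rises and 69 falls over 2-fold. In 270 of the risen genes all 4 arrays at 48 h lay above all 4 at 24 h, and in 258 of the fallen genes they lay below, against 5.39% and 6.23% of all genes tested. When the arrays were scaled by their medians in place of quantiles, the share of called probes that were higher at 48 h was 70.4%, against 54.2%, and the difference of all probes then had a median of 0.07. Without the STKO pair the called probes fell to 187, and without WT or TKO to 599 or 708, against 1902 with all 4 pairs and 1673 without SKO.

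**Figure D1:**
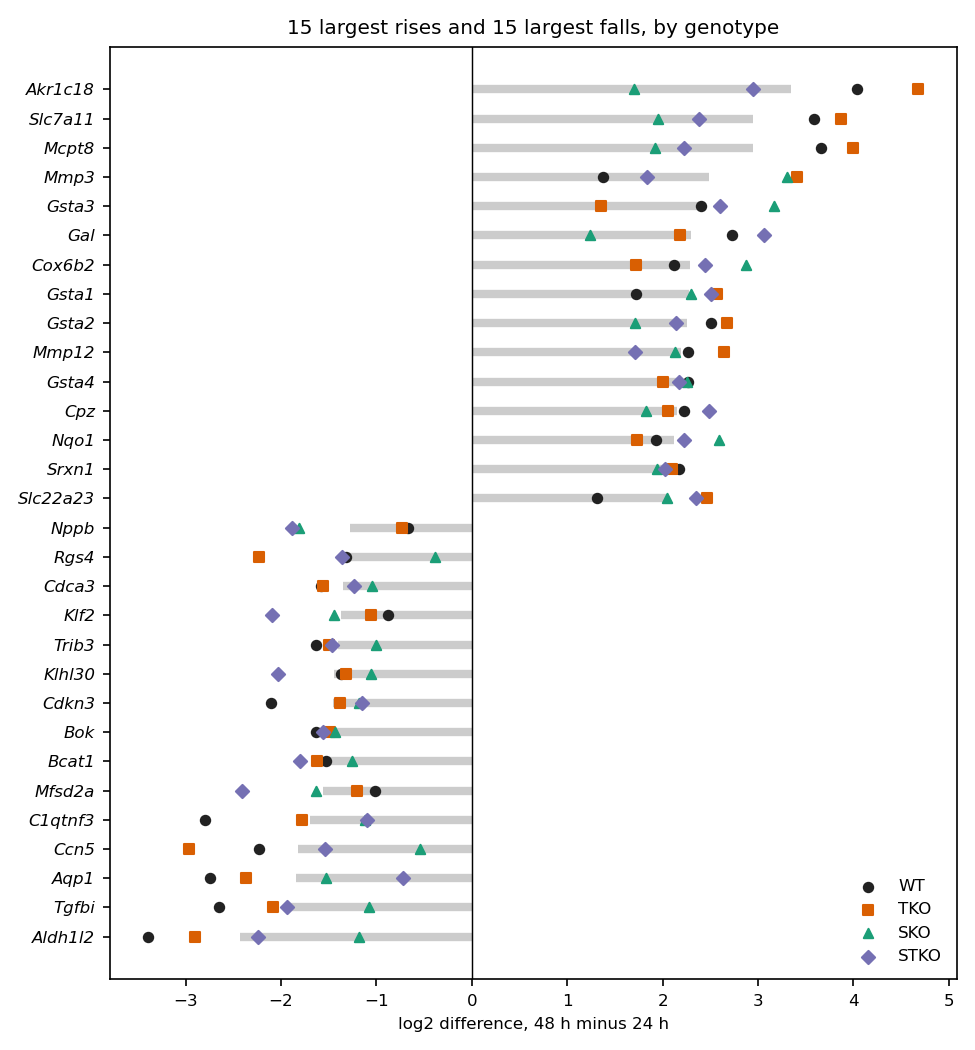
Log2 difference, 48 h minus 24 h (x axis), of the 15 genes that rose most and the 15 that fell most (y axis). Each symbol is 1 genotype and the grey bar is the mean of the 4. Every symbol of a gene lies on the same side of 0.

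The largest rises joined detoxification enzymes and a cystine carrier with proteases and other genes. Akr1c18, an aldo-keto reductase that inactivates progesterone, read 11.07, 9.90, 6.40 and 7.67 at 48 h in WT, TKO, SKO and STKO, against 7.03, 5.22, 4.70 and 4.72 at 24 h (log2 levels). It was higher at 48 h in each genotype, by 3.34 ± 0.43 on the log2 scale (SE, n = 4 differences; limma adjusted p = 0.0084), although the level of SKO at 48 h lay below that of WT at 24 h, and at 24 h it was detected on 1 array only. Slc7a11, the cystine-importing subunit of the xCT antiporter, read 9.18, 9.12, 8.89 and 8.99 at 48 h, against 5.60, 5.25, 6.94 and 6.61 at 24 h. The 48 h arrays were nearly equal while the 24 h arrays differed, and the rise was 2.95 ± 0.31 (limma adjusted p = 0.0052). Its other probe rose by 1.72, and the first probe was detected at 24 h in SKO and STKO only. The remaining largest rises included the matrix metalloproteases Mmp3 (2.48 ± 0.35) and Mmp12 (2.19 ± 0.16), the neuropeptide galanin Gal (2.30 ± 0.27), Cox6b2, a testis-type subunit of cytochrome c oxidase (2.29 ± 0.19), and the carboxypeptidase Cpz (2.15 ± 0.14), all as log2 differences with limma adjusted p of 0.0097 or less. Mmp3, Gal and Cpz were detected at 24 h in WT and TKO only, so their differences in SKO and STKO are against levels below detection. With such levels raised to the lowest detected one, the difference of Gal in SKO was 0.07, against 1.24 as measured, and that of Cpz 0.68, against 1.82. Those of Akr1c18 in TKO, SKO and STKO were then 4.00, 0.55 and 1.76, against 4.68, 1.70 and 2.95 as measured.

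The NRF2 list moved almost as a block. Of its 18 tested members 14 rose and 0 fell, with a median log2 difference of 1.40 against -0.01 for all genes tested, and 15 of the 18 were detected on all 8 arrays. The medians within WT, TKO, SKO and STKO were 1.38, 1.30, 1.58 and 1.49. Srxn1, the sulfiredoxin that repairs over-oxidised peroxiredoxins, read 12.85, 12.79, 12.54 and 12.76 at 48 h, against 10.68, 10.69, 10.60 and 10.74 at 24 h (log2 levels). The groups were far apart and the genotypes nearly equal, with a difference of 2.06 ± 0.11 (limma adjusted p = 0.00119). Gclm, the modifier subunit of the rate-limiting enzyme of glutathione synthesis, read 12.32, 11.65, 12.40 and 12.33 at 48 h, against 10.16, 9.85, 10.54 and 10.36 at 24 h, a rise of 1.95 ± 0.11 (limma adjusted p = 0.00159). TKO was the lowest genotype for Gclm at both times. The catalytic subunit Gclc rose by 1.43 ± 0.17.

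Quinone, haem and thioredoxin enzymes of the list rose alongside. Nqo1, which reduces quinones by 2 electrons, rose by 2.12 ± 0.16, and SKO, with the lowest level at both times, had the largest difference (2.59, against 1.93 in WT). Hmox1, which opens haem, rose by 1.72 ± 0.20, and Blvrb, which reduces biliverdin, by 1.62 ± 0.12. Txnrd1, the cytosolic thioredoxin reductase, rose by 1.37 ± 0.14, and the export pump Abcc4 by 1.11 ± 0.19. Its relative Abcc1, not detected on any 24 h array, was at least 1.10-fold higher at 48 h. The autophagy receptor Sqstm1 rose by 0.59 ± 0.11. The 4 members that did not pass were Prdx1 (0.40, adjusted p = 0.0591), Ftl1 (0.16), Txn1 (0.12) and Fth1 (-0.01), all log2 differences. Without the STKO pair 9 members were called, and the list's median lay between 1.24 and 1.49 whichever pair was left out.

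NRF2 binds antioxidant response elements, whose core TGACNNNGC (N is any base) was looked for on both strands of the RefSeq promoter windows of GRCm38.p6, which run from 250 bases before to 50 after a gene's start. Windows were found for 14 of the list's 18 tested members, and 6 of their 20 windows held the core (30.0%), against 14.1% of 10147 windows of all genes tested. The 2 called members with the smallest p among those that held it are shown as examples of a strong and even rise, with the core in capitals. In Srxn1 (chr2:152105274-152105573, + strand) the match lies 28 bases after the start, and in Gclm (chr3:122245307-122245606, + strand) 134 bases before it, both on the opposite strand.
Srxn1: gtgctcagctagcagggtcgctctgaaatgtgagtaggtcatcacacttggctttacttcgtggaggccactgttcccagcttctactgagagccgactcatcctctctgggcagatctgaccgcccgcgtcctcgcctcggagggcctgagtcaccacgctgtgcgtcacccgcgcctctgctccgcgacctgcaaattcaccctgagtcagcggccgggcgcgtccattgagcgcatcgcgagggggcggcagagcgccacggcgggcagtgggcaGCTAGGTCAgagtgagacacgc
Gclm: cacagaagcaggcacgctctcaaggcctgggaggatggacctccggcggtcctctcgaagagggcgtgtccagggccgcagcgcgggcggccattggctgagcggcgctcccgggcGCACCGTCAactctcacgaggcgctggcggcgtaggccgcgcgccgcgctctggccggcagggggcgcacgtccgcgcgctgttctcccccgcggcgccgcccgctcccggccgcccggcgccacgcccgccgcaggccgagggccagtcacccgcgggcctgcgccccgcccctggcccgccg
A match describes these letters only, and neither other spellings of the core nor sites outside the windows were searched.

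Glutathione S-transferases, which couple glutathione to electrophiles, rose in 8 of 22 tested members and fell in 0, with a median log2 difference of 0.40. The alpha class led, and its member Gsta4 is in the NRF2 list too. Gsta4, which acts on lipid aldehydes, read 11.89, 11.42, 11.97 and 11.63 at 48 h, against 9.63, 9.41, 9.71 and 9.46 at 24 h (log2 levels), a rise of 2.17 ± 0.11 (limma adjusted p = 0.00119). The 4 differences, from 2.01 to 2.26, were among the most even of the comparison. Gsta3 rose by 2.38 ± 0.26, Gsta1 by 2.28 ± 0.16 and Gstm1 by 1.33 ± 0.18, while the other Gstm1 probe read -0.46. Gsta2 went undetected at 24 h and was detected on all 4 arrays at 48 h, at least 2.95-fold higher (limma adjusted p = 0.00169). Without STKO 4 members rose. Members of these families are close in sequence, so a probe may read more than 1 of them.

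Among targets of the aryl hydrocarbon receptor 7 of 9 tested members rose and 0 fell, with a median log2 difference of 1.17, and only 4 of the 9 were detected on all 8 arrays. The lists overlap: of the risen members, Nqo1 is in the NRF2 list too and Gsta1 in that of the glutathione S-transferases. Beside these, the glucuronosyltransferases Ugt1a7c (1.18 ± 0.11), Ugt1a6b (1.17 ± 0.19) and Ugt1a6a (1.03 ± 0.15) rose, which share exons and may share signal. The aldehyde dehydrogenase Aldh3a1 (1.34 ± 0.25) rose too. Cyp1b1, the P450 that oxidises DMBA in fibroblasts, read 12.98, 12.50, 11.93 and 12.61 at 48 h, against 12.21, 11.90, 11.47 and 12.33 at 24 h (log2 levels). It was already bright at 24 h and rose by 0.52 ± 0.12, or 1.44-fold (limma adjusted p = 0.0364). The receptor's repressor Ahrr (0.20) and Nfe2l2, which encodes NRF2 itself (0.14), did not pass. The list had 3 calls without the STKO pair.

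**Figure D2:**
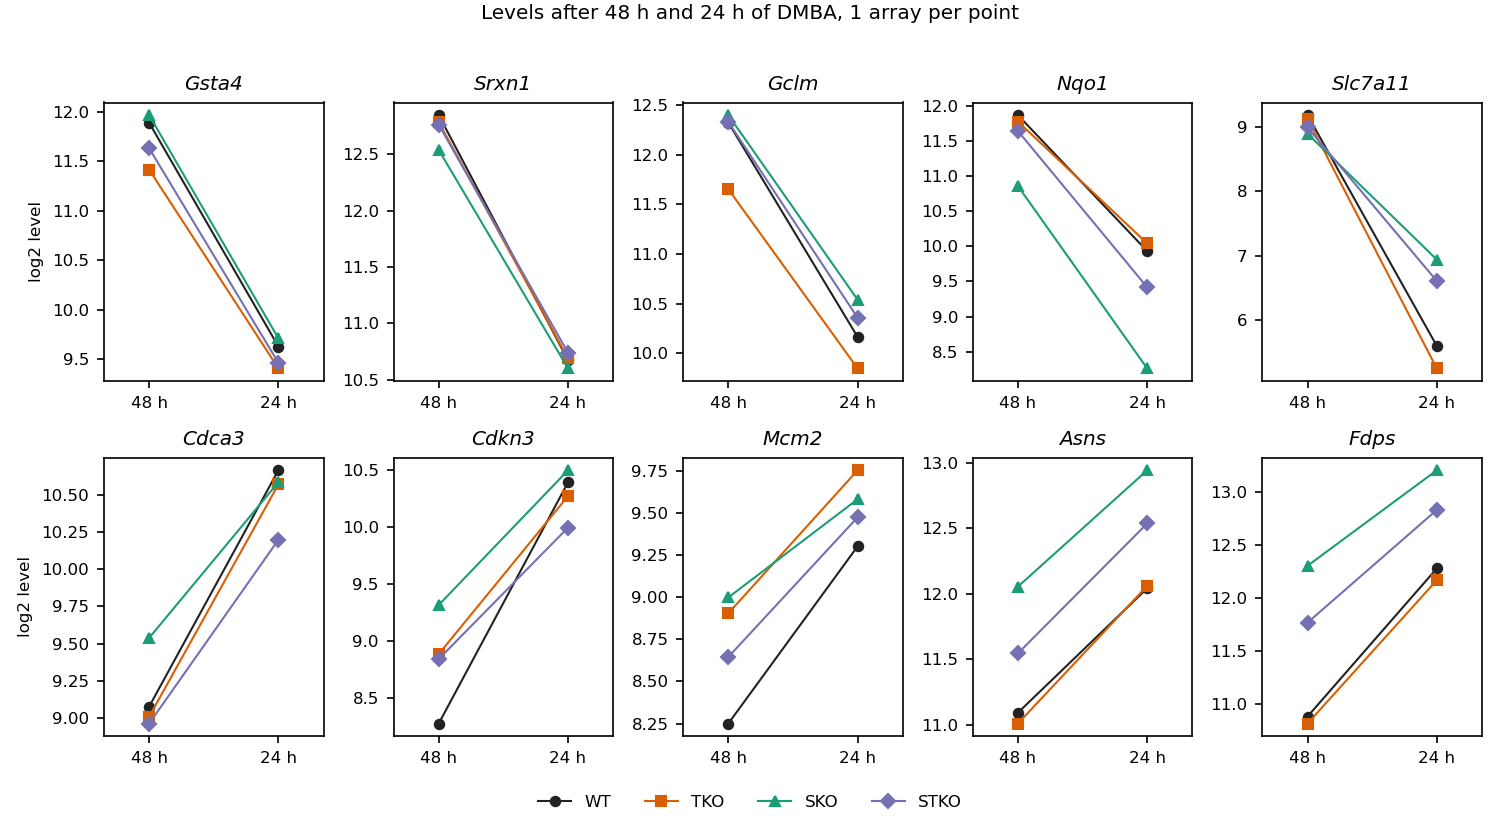
Log2 level (y axis) of 10 genes at 48 h and 24 h of DMBA (x axis), 1 point per array, joined within a genotype. The upper row shows genes higher at 48 h in all 4 genotypes, among them Gsta4 and Slc7a11, and the lower row genes lower at 48 h in all 4, among them Cdca3, Mcm2 and Fdps.

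Genes of cell division fell. Of 31 tested mitosis genes 22 fell and 0 rose, with a median log2 difference of -0.69 (WT -1.01, TKO -0.68, SKO -0.43 and STKO -0.60). Cdca3, which takes part in the destruction of the mitotic inhibitor WEE1, read 9.08, 9.01, 9.54 and 8.97 at 48 h, against 10.66, 10.57, 10.58 and 10.20 at 24 h (log2 levels), a fall of -1.35 ± 0.13 (limma adjusted p = 0.00431). Cdkn3, a phosphatase of cyclin-dependent kinases, read 8.28, 8.89, 9.32 and 8.84 at 48 h, against 10.39, 10.27, 10.50 and 9.99 at 24 h, a fall of -1.45 ± 0.18 (limma adjusted p = 0.00678). In both genes all 48 h arrays lay below all 24 h arrays and SKO was the highest genotype at 48 h. Ube2c, an E2 enzyme of the anaphase-promoting complex (-1.07 ± 0.14, detected at 48 h in SKO only), Cdc25c, the phosphatase that opens mitosis (-0.94 ± 0.12), and the survivin gene Birc5 (-0.89 ± 0.13) fell as well. Kif23 (-0.18) and Spc25 (-0.01) were among the 9 that did not pass. The count of falls was 2 without STKO, 6 without WT, 10 without TKO and 23 without SKO, with medians between -0.80 and -0.64.

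The hexamer TTTGAA is the core of the cell cycle homology region, an element of late cell cycle promoters bound by the MuvB complexes. It occurred on either strand in 23 of the 27 windows of tested mitosis genes (85.2%), and in 11.7% of the windows of all genes tested. In Cdca3 (chr6:124829926-124830225, + strand) it lies 30 bases after the start on the same strand, and in Cdkn3 (chr14:46760291-46760590, + strand) 111 bases before it on the opposite strand. Both windows are shown, as the called members with the smallest p that hold the hexamer, which is in capitals.
Cdca3: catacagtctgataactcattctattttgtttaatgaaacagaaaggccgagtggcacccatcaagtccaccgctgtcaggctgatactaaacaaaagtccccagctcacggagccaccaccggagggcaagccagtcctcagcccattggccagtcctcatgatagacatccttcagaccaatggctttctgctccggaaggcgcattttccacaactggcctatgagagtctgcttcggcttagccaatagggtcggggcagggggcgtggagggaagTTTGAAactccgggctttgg
Cdkn3: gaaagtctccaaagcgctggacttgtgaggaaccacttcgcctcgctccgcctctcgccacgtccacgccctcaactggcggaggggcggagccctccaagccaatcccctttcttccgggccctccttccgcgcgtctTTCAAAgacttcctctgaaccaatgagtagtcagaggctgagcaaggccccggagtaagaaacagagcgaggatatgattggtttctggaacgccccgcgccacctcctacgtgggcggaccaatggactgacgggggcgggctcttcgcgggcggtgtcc
Neither window holds the NRF2 core, and no binding of a factor was measured.

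Replication and S phase genes also fell, in 13 of 40 tested members with 0 rises and a median log2 difference of -0.59. Here the genotypes were less alike, with medians of -0.83 and -0.68 in WT and TKO and of -0.07 and -0.55 in SKO and STKO. Rrm1, the large subunit of ribonucleotide reductase (-0.77 ± 0.11), Mcm2 (-0.83 ± 0.12) and Mcm3 (-0.73 ± 0.12) of the replicative helicase, cyclin E1 Ccne1 (-0.78 ± 0.11) and Chaf1a of chromatin assembly factor 1 (-0.83 ± 0.12) fell in all 4 genotypes. Without the SKO pair 25 members were called, and 1 without STKO. Pcna (-0.41) and E2f1 (-0.03) were not called.

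Histone genes went the other way, with 8 of 19 tested members higher at 48 h, 0 lower and a median log2 difference of 0.40. H4c8 read 11.86, 11.94, 10.31 and 11.97 at 48 h, against 9.56, 9.97, 9.15 and 10.14 at 24 h (log2 levels). All 48 h arrays lay above all 24 h arrays, and the rise was 1.81 ± 0.18 (limma adjusted p = 0.00517). H4c9 (1.06 ± 0.15), H2ac18 (0.97 ± 0.12), H2bc14 (0.86 ± 0.12) and the linker histone H1f2 (0.71 ± 0.10) rose too. Messages of replication-dependent histones normally end without a poly(A) tail, and copies of these genes are close in sequence, so a probe may read several. The variant gene H2az1, which is not among the replication-dependent ones, read -0.43 and was not called. Without STKO 1 histone gene was called, and without SKO 9 rose and 2 fell.

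Of 33 tested p53 targets, all detected on every array, 5 rose and 0 fell, and 16 were higher at 48 h in 4 of 4 genotypes. The median log2 difference was 0.34, against -0.01 for all genes. The phospholipid transfer protein gene Pltp rose by 1.39 ± 0.12 (limma adjusted p = 0.00232), Dcxr by 0.61 ± 0.13, the lesion-bypass polymerase Polk by 0.53 ± 0.11 and the microsomal epoxide hydrolase Ephx1, which also acts in DMBA metabolism, by 0.49 ± 0.12. Cdkn1a, the cell cycle inhibitor p21, read 14.43, 14.49, 13.75 and 14.14 at 48 h, against 14.27, 14.49, 13.28 and 14.02 at 24 h (log2 levels), and was not called (0.19 ± 0.12, adjusted p = 0.353). Mdm2, which turns p53 over, stood at 0.55 ± 0.15 (adjusted p = 0.0558), and its other 2 probes rose. With any 1 pair left out 1 member was called, and 7 were with median scaling. In the DNA repair list 3 of 37 rose and 4 fell, beside 6.03% and 4.80% of all genes tested, and 0 were called without STKO. Mgmt, the methyltransferase that takes alkyl groups off guanine, rose by 0.84 ± 0.12, and Mre11a (-0.58 ± 0.11), Polh (-0.57 ± 0.11) and Rad51ap1 (-0.61 ± 0.13) fell.

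Genes of amino acid supply that ATF4 controls fell in 13 of 29 tested members and rose in 2, with a median log2 difference of -0.57. Aldh1l2, the mitochondrial formyltetrahydrofolate dehydrogenase, read 6.93, 6.85, 10.04 and 8.16 at 48 h, against 10.32, 9.75, 11.22 and 10.41 at 24 h (log2 levels), the largest fall among the genes called (-2.43 ± 0.32, limma adjusted p = 0.00895). It was lower at 48 h in each genotype, least in SKO, whose 48 h level lay above the 24 h level of TKO. Asns, asparagine synthetase, fell by -0.97 ± 0.10, with differences between -1.05 and -0.89 in the 4 genotypes. The branched-chain aminotransferase Bcat1 (-1.55 ± 0.13), the pseudokinase Trib3 (-1.40 ± 0.13) and Psat1 of serine synthesis (-1.01 ± 0.12) fell with them. Both members that rose are amino acid carriers: Slc7a11, which the NRF2 list holds too, and Slc6a9, a glycine transporter (0.75). Atf4 itself (-0.13), Ddit3 (0.35) and Atf3 (0.40) were not called. Aminoacyl-tRNA synthetases had 3 falls and 0 rises among 18 tested, Aars (-0.60 ± 0.12), Kars (-0.60 ± 0.14) and Vars (-0.59 ± 0.15). In the unfolded protein list of 18 the co-chaperone Dnajb9 rose by 0.58 ± 0.11 and Xbp1 (-0.55 ± 0.11), Herpud1 (-0.50 ± 0.11) and Calr (-0.54 ± 0.13) fell. Without STKO 4 of the ATF4 members fell, and 0 synthetases and 0 unfolded protein genes were called.

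Cholesterol synthesis enzymes fell in 10 of 18 tested members and rose in 2, with a median log2 difference of -0.55 and medians of -0.66 to -0.51 in the 4 genotypes. Fdps, which makes farnesyl diphosphate, read 10.88, 10.81, 12.30 and 11.76 at 48 h, against 12.28, 12.16, 13.20 and 12.83 at 24 h (log2 levels), a fall of -1.18 ± 0.13 (limma adjusted p = 0.0052). SKO and STKO were above WT and TKO at both times. Its other probe read -0.32 and was not called. Lss (-0.95 ± 0.13), Mvd (-0.82 ± 0.14), Cyp51 (-0.77 ± 0.12) and Sqle (-0.76 ± 0.12), enzymes before and after the closing of the sterol rings, fell, and mevalonate kinase Mvk was detected at 24 h alone. The list had 1 fall without STKO and 4, 5 and 8 without WT, TKO and SKO. In fatty acid synthesis and storage 2 of 19 rose and 4 fell, among them the lipid droplet protein Plin2 (0.84 ± 0.19) and the desaturases Scd2 (-0.79 ± 0.17) and Fads1 (-0.59 ± 0.14), and 0 were called without STKO.

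**Figure D3:**
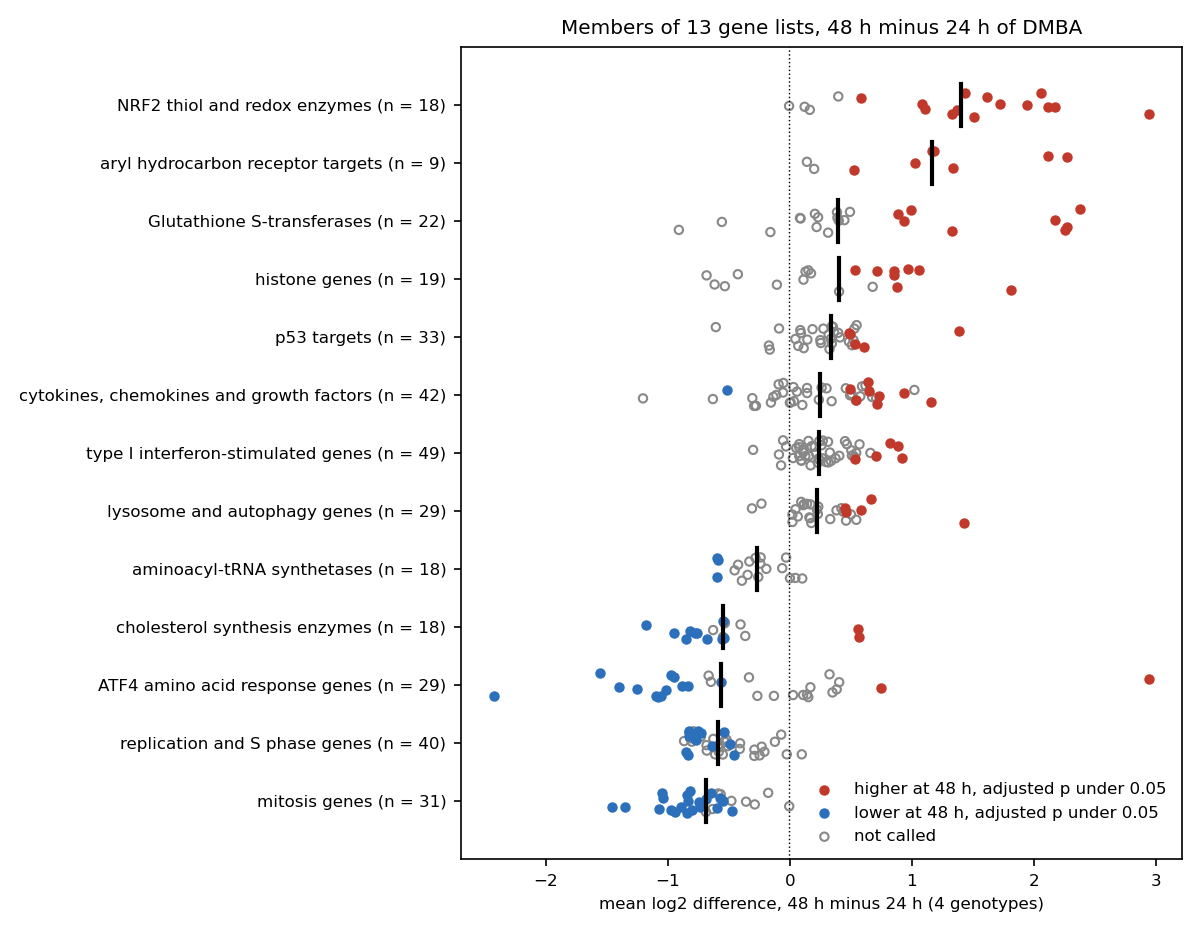
Mean log2 difference, 48 h minus 24 h (x axis), of each tested member of 13 gene lists (y axis, n tested members). Filled red and blue points were called, open points were not, vertical bars are list medians and the dotted line is the median of all genes. The NRF2 median lies at 1.40 and the mitosis median at -0.69.

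Most inflammatory readouts of the STING pathway did not pass the test over time. That test averages over all 4 genotypes, of which SKO and STKO lack STING. By STING status, present minus absent, the time differences differed by 1.25 for Ccl2, 1.13 for Ccl5, 1.12 for Cxcl10, 1.02 for Isg15 and 0.69 for Il6. Those of Ccl5 and Cxcl10 are partly against levels below detection. In the test by STING status, 0 of 42 tested cytokines, chemokines and growth factors were called. For Isg15 the times differed by 0.91 and 0.75 in WT and TKO and by 0.54 and -0.93 in SKO and STKO. For Il6 they differed by 0.32 and 0.09 in WT and TKO and by -0.80 and -0.15 in SKO and STKO. Interferon-stimulated genes had 5 rises and 0 falls among 49 tested members, beside rises in 6.03% and falls in 4.80% of all genes tested. Their median log2 difference was 0.24. Cxcl10, a chemokine induced by interferon, read 6.71, 11.74, 4.93 and 4.73 at 48 h, against 5.77, 10.39, 4.72 and 4.89 at 24 h (log2 levels), and was detected in WT and TKO at 48 h and in TKO alone at 24 h. Its difference of 0.58 ± 0.24 was not called (adjusted p = 0.17). Isg15, a ubiquitin-like protein, read 10.39, 13.04, 6.97 and 6.28 at 48 h, against 9.48, 12.30, 6.43 and 7.21 at 24 h, also not called (adjusted p = 0.518). For both genes the genotypes differed far more than the times, with TKO highest. The members that rose were Gbp3 (0.92 ± 0.13) and Gbp7 (0.71 ± 0.15), both guanylate-binding proteins, Ifit3 (0.89 ± 0.19), Lgals3bp (0.82 ± 0.14) and the RNA-editing enzyme Adar (0.54 ± 0.10). As measured, all 5 were higher at 48 h in SKO and STKO as well. The same held for every gene called as risen, so it follows from the call and tells nothing separate about STING. Gbp7 was detected on only 2 arrays at 48 h and 2 at 24 h, so part of its differences rest on levels below detection. The other probes of Gbp3, Gbp7 and Ifit3 were not called, nor were those of Adar, and 0 members were called without STKO.

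Cytokines rose in 8 of 42 tested members and fell in 1. Il7 (1.16 ± 0.13) and Il15 (0.64 ± 0.10), growth factors of lymphocytes, and the chemokines Ccl9 (0.94 ± 0.19), Ccl3 (0.71 ± 0.13) and Ccl25 (0.49 ± 0.11) were the rises with the smallest p. Ccl2, the monocyte attractant, read 11.44, 11.95, 10.20 and 10.40 at 48 h, against 10.22, 9.88, 9.78 and 10.02 at 24 h (log2 levels). It was higher in each genotype, by 1.23, 2.06, 0.42 and 0.37, and missed the threshold (1.02 ± 0.28, adjusted p = 0.057). Ccl5 (0.67 ± 0.27, adjusted p = 0.152) and Il6 (-0.13 ± 0.19, adjusted p = 0.675) did not pass either. Of 20 tested NF-kB response genes the adhesion molecule Icam1 (1.24 ± 0.15) and the prostaglandin synthase Ptges (0.88 ± 0.14) rose, beside 6.03% of all genes tested. Without STKO 1 cytokine was called.

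Matrix genes split. Mmp3, stromelysin-1, read 8.89, 10.53, 8.88 and 7.45 at 48 h, against 7.51, 7.13, 5.57 and 5.62 at 24 h (log2 levels), and its 3 probes all rose. In the list of 25 proteases and inhibitors 4 rose and 3 fell, the falls including the urokinase gene Plau (-1.02 ± 0.18) and the aggrecanase Adamts4 (-0.69 ± 0.14). The proteoglycan Dcn, decorin, rose by 1.23 ± 0.12 and Matn4 by 1.63 ± 0.22. Tgfbi, a secreted adhesion protein, read 7.56, 7.61, 8.89 and 7.36 at 48 h, against 10.20, 9.70, 9.97 and 9.29 at 24 h, and fell by -1.94 ± 0.23 (limma adjusted p = 0.00671). All its 48 h arrays lay below all 24 h arrays. Ccn5 (-1.82 ± 0.35) and C1qtnf3 (-1.70 ± 0.28), also secreted, fell less in SKO and STKO (-0.55 and -1.54, and -1.12 and -1.10) than in WT and TKO (-2.23 and -2.96, and -2.80 and -1.78), differences that did not pass the test by STING status (adjusted p = 0.0718 and adjusted p = 0.0874). Another C1qtnf3 probe showed no such split, with -2.24 and -1.64 in WT and TKO and -1.56 and -2.20 in SKO and STKO. Of 17 collagens 3 rose and 1 fell, Col18a1 (0.77 ± 0.12), Col4a5 (0.68 ± 0.11) and Col27a1 (0.96 ± 0.19) upward and Col6a2 (-0.77 ± 0.15) downward. Contractile genes fell in 5 of 26 and rose in 1, with myosin light chain kinase Mylk at -1.14 ± 0.23 and Actg2 at -0.65 ± 0.10. Without STKO 0 collagens and 0 contractile genes were called, and of the proteases 2 rose and 0 fell.

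Transcripts of macrophages were present and part of them grew. Of 14 listed macrophage markers 11 were tested, 5 rose and 1 fell, while the pan-leukocyte Ptprc and the integrin Itgam were detected on no array. The median log2 difference of the tested markers was -0.01, with 0.29, 0.06, 0.02 and -0.42 in WT, TKO, SKO and STKO. Lysozyme Lyz2 read 14.67, 12.00, 14.43 and 14.44 at 48 h, against 13.66, 10.54, 12.89 and 13.19 at 24 h (log2 levels), a rise of 1.31 ± 0.13 (limma adjusted p = 0.00431). TKO was lowest at both times. Fcgr3 (1.04 ± 0.15), Lyz1 (0.81 ± 0.18), Tyrobp (0.70 ± 0.12) and Adgre1 (0.47) rose, and the complement gene C1qa fell by -0.73 ± 0.11, with Csf1r at -0.31 and not called. The summed linear signal of the tested markers ran from 15924.6 to 66267.9 on the 48 h arrays and from 6641.44 to 46299.7 on the 24 h arrays. Lyz1 and Lyz2, with mean log2 levels of 14.7 and 13.9 at 48 h, weigh heavily in this sum. Mmp12, the macrophage elastase, had the same order of genotypes at the extremes, with 12.33, 9.08, 10.53 and 10.80 at 48 h and 10.06, 6.44, 8.39 and 9.09 at 24 h. Lysosomal and autophagy genes rose in 5 of 29 and fell in 0, with Ctsa (1.43 ± 0.10; its other 3 probes between -0.17 and 0.13), Gpnmb (0.67 ± 0.14), Ctsb (0.46 ± 0.11) and Psap (0.45 ± 0.10). Without STKO 1 marker and 1 lysosomal gene rose. The part of macrophage transcripts in the rises of Mmp12, Ccl3, Ccl9 and the lysosomal genes was not tested.

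The lists of basic cell functions differed in their share of calls, beside 6.03% of all genes tested that rose and 4.80% that fell. Mitochondrial complex I had 0 calls among 33, cytosolic ribosomal proteins 1 fall (Rpl21) among 51 and proteasome subunits 1 fall (Psmd8) among 32. Of 24 immediate early genes Klf2 (-1.37 ± 0.20), Dusp1 (-0.68 ± 0.12) and Fos (-0.58 ± 0.12) fell and Fosl2 rose (0.54 ± 0.13). The peptide hormone Adm (1.68 ± 0.13) and the mitophagy receptor Bnip3l (0.43 ± 0.11) rose and the phosphofructokinase Pfkp (-0.68 ± 0.12) fell among 26 glycolysis and hypoxia genes. In the list of 20 iron and ferroptosis genes 5 rose, among them the lipoxygenase Alox5 (1.02 ± 0.12) and the iron exporter Slc40a1 (0.98 ± 0.20), and 2 fell, one of which was the glutathione-degrading Chac1 (-0.83 ± 0.15). Of 13 clock genes Rora (0.75 ± 0.12) and Nr1d2 (0.72 ± 0.16) rose, of 16 heat shock genes Cryab rose (0.81 ± 0.12), and of 8 genes of NADPH supply Taldo1 rose (0.73 ± 0.11) while Tkt (-0.56 ± 0.10) and Idh2 (-0.58 ± 0.14) fell. Without STKO 2 iron genes rose and 0 fell, and 0 genes of NADPH supply, the clock or heat shock were called.

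A small set of genes was detected at one time only. Of 9767 genes tested, 24 were detected on all 4 arrays at 48 h and none at 24 h (detection p under 0.01), of which 17 were called. On all 4 at 24 h and none at 48 h there were 4. The lowest detected log2 levels were 5.66 to 5.83 on the 48 h arrays and 5.85 to 5.91 on the 24 h arrays. Detected probes numbered 16005 to 16785 and 15662 to 15937, and the part of this in the counts was not tested. Some of the 24 differed little, such as Rnf111 (0.24) and Neurod2 (0.27). Mcpt8, a serine protease known from mouse basophils, read 8.67, 9.05, 6.77 and 7.73 at 48 h, against 5.01, 5.06, 4.85 and 5.51 at 24 h (log2 levels), and was at least 4.52-fold higher (limma adjusted p = 0.00671). The other 7 mast cell and basophil markers were detected on no array. The transporter gene Slc22a23 was at least 2.70-fold higher at 48 h. The lipid transporter Mfsd2a read 5.42, 5.70, 5.20 and 5.06 at 48 h, against 6.43, 6.90, 6.83 and 7.46 at 24 h, and was at least 2.23-fold lower at 48 h (limma adjusted p = 0.0104). Klhl30, Mvk and the receptor gene Trem1 were the other 3, at least 1.39-fold lower in Klhl30 and 1.26-fold lower in Mvk.

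The differences between the times were more alike among genotypes of the same STING status. Across 17558 probes, which are not independent, the WT and TKO differences correlated at 0.752 and those of SKO and STKO at 0.689, against 0.264 to 0.439 for the 4 pairs of unlike status. Each difference uses its own 2 arrays. The labels used here do not say which arrays shared a bead chip, and the part of this in the likeness was not tested. In the test of the difference itself, 188 genes (1.92%) were called, 93 with a larger value in WT and TKO and 95 with a larger value in SKO and STKO, all with an adjusted p between 0.0496 and 0.0499. They sit at the threshold: 4876 probes had an unadjusted p under 0.05, and the number of called probes was 332, 0 without any 1 genotype or without the detection filter, and up to 2095 with the authors' deposited value table. In 150 of the 188 the mean differences with and without STING had opposite signs, and 10 of the 188 were also called over all genotypes. Of 53 with other tested probes, 31 had all of them on the same side and 22 had at least 1 on the other. The brightness of the arrays moved with this split: the median signal at 48 h was 1.16 and 1.10 times that at 24 h in WT and TKO, and 0.962 and 0.938 times in SKO and STKO. Its part in the result was not tested, and under median scaling the interaction of all probes had a median of 0.18, with 1370 probes called on the side of WT and TKO and 225 on the other.

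**Figure D4:**
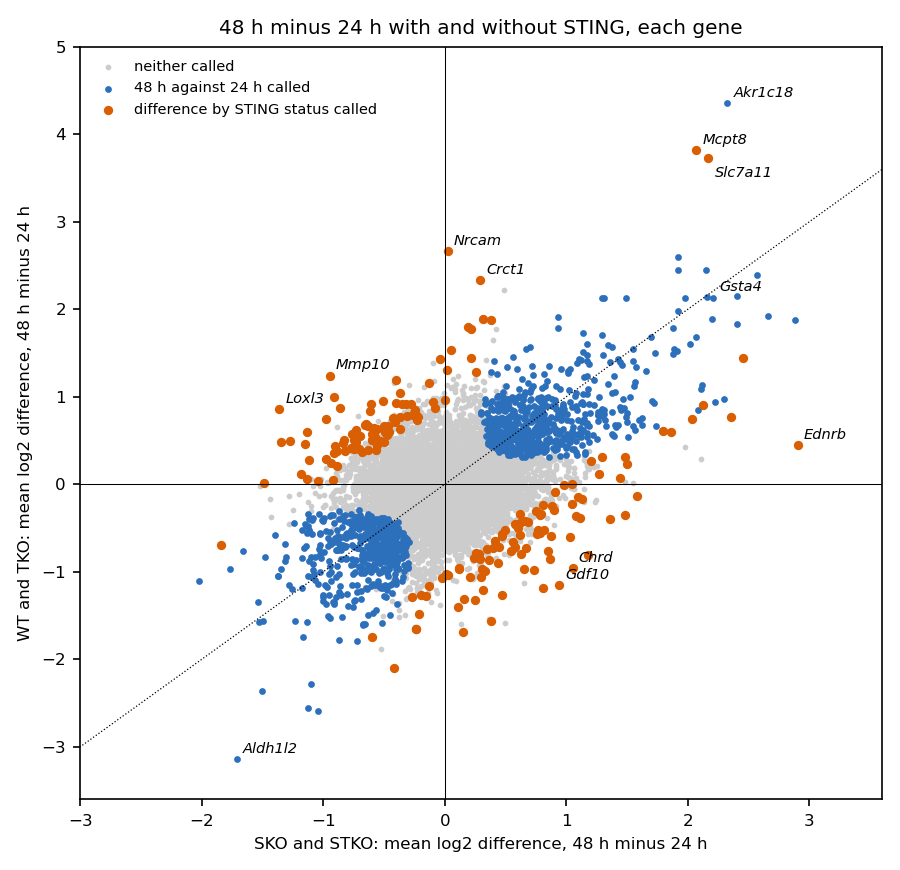
Mean log2 difference, 48 h minus 24 h, in WT and TKO (y axis) against SKO and STKO (x axis) for 9767 genes. Blue points were called over all 4 genotypes and orange points, 188 genes, in the test by STING status, and the dotted line marks equal differences.

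Genes with higher levels at 48 h in WT and TKO led the first side. Nrcam, a neuronal cell adhesion molecule, read 7.06 and 8.49 in WT and TKO at 48 h, against 4.97 and 5.25 at 24 h (log2 levels). In SKO and STKO it read 4.76 and 5.39 at 48 h, against 5.00 and 5.09 at 24 h, and it was detected on 2 of the 8 arrays only, WT and TKO at 48 h. The measured difference by STING status was 2.64 ± 0.39 (limma adjusted p = 0.0496), and 2.01 with undetected levels raised to the lowest detected one. Crct1, a protein of the cornified envelope locus, differed by 2.45 and 2.22 in WT and TKO and by -0.01 and 0.59 in SKO and STKO. The stromelysin Mmp10 read 8.56 and 7.86 in WT and TKO at 48 h, against 7.72 and 6.22 at 24 h, while in SKO and STKO it read 6.48 and 7.43 at 48 h, against 7.20 and 8.61 at 24 h. It turned between the genotypes, higher at 48 h where STING was present and lower where it was absent, with 2.19 ± 0.31 between the 2 statuses. Loxl3, a lysyl oxidase, differed by 0.77 and 0.95 in WT and TKO and by -1.63 and -1.09 in SKO and STKO, Ube2ql1 by 1.20 and 0.79 and by -1.17 and -0.65, and the exosome nuclease gene Dis3 by 0.79 and 0.18 and by -1.55 and -1.15. Loxl3 was not detected in WT at 24 h, Ube2ql1 was detected on 4 of the 8 arrays and Dis3 on 5, and with undetected levels raised the differences by STING status were 1.82, 0.95 and 1.75. Among the genes that rose in all genotypes, Slc7a11 (1.56 ± 0.22) and Mcpt8 (1.75 ± 0.20) grew more in WT and TKO, and the other Slc7a11 probe read -0.16 in this test. At 24 h Mcpt8 was detected on no array and Slc7a11 in neither WT nor TKO, and with undetected levels raised the values were 1.61 for Mcpt8 and 1.11 for Slc7a11. Akr1c18, at 2.03 ± 0.43, did not pass (adjusted p = 0.0592), and its value was 2.87 with undetected levels raised.

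The largest values on the opposite side were those of a receptor, 2 secreted factors, a chromatin remodeller, an alcohol dehydrogenase and a replication factor. Ednrb, the endothelin B receptor, read 8.61 and 8.35 in WT and TKO at 48 h, against 7.82 and 8.24 at 24 h (log2 levels). In SKO and STKO it read 10.59 and 9.93 at 48 h, against 7.75 and 6.97 at 24 h, so that the times differed by 0.79 and 0.11 in WT and TKO and by 2.84 and 2.97 in SKO and STKO, a difference of -2.46 ± 0.25 (limma adjusted p = 0.0496). Its other 2 probes read -1.76 and -1.69. Gdf10, a growth factor of the BMP family, read 7.98 and 6.51 in WT and TKO at 48 h, against 8.95 and 7.85 at 24 h, while in SKO and STKO it read 7.33 and 7.17 at 48 h, against 6.01 and 6.61 at 24 h. Chrd, the BMP antagonist chordin, differed by -0.83 and -1.09 in WT and TKO and by 1.17 and 0.93 in SKO and STKO. The alcohol dehydrogenase Adh1 (-1.98 ± 0.30), the chromatin remodeller Smarca1 (-1.99 ± 0.24) and Gins1 of the replicative helicase (-1.94 ± 0.27) followed, with Gins1 lower at 48 h in WT and TKO (-1.89 and -1.23) and not in SKO and STKO (0.60 and 0.16).

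**Figure D5:**
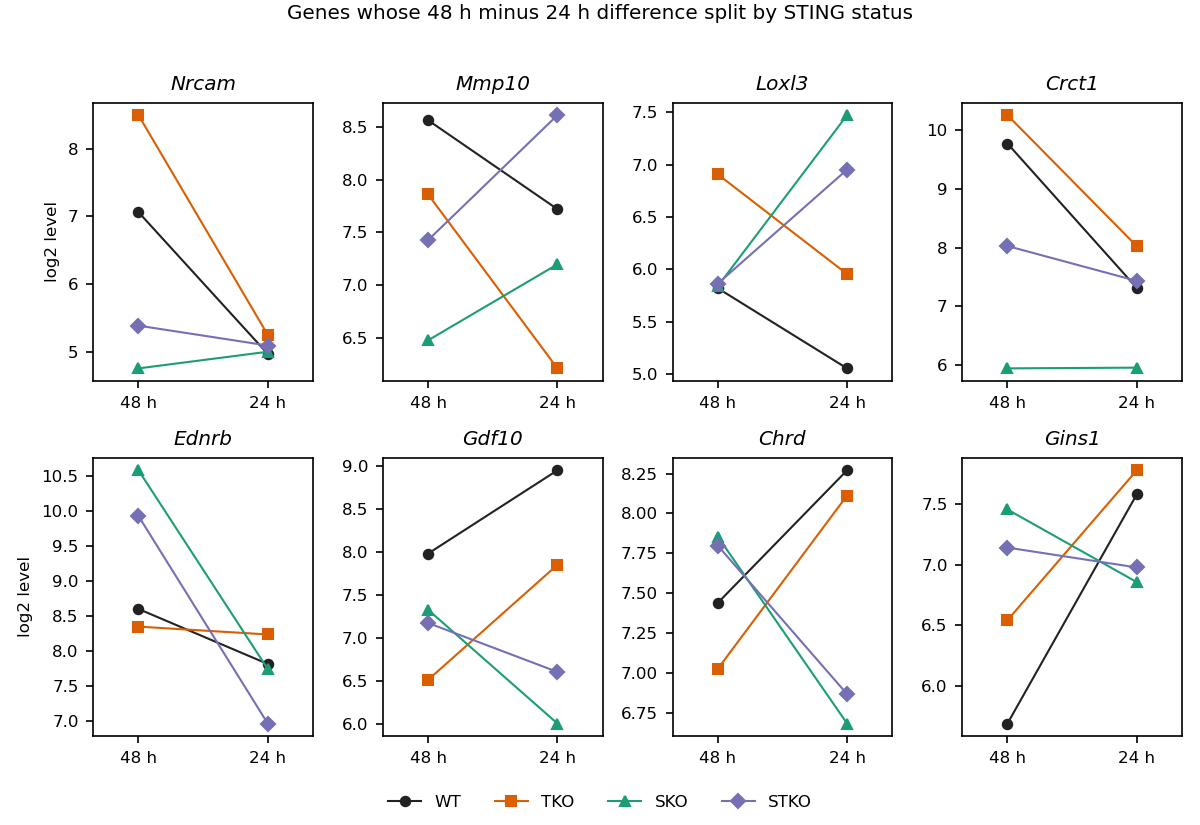
Log2 level (y axis) of 8 genes at 48 h and 24 h of DMBA (x axis), 1 point per array, joined within a genotype. In the upper row the WT and TKO lines are higher at 48 h, and in Mmp10 and Loxl3 the SKO and STKO lines are lower. In the lower row SKO and STKO are higher at 48 h, and WT and TKO are lower for Gdf10, Chrd and Gins1. Points below detection are drawn as measured.

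Counted without a test, 11 genes turned, with a rise of at least 2-fold in 1 genotype and a fall of at least 2-fold in another, the higher level of each being detected. With undetected levels raised to the lowest detected one, a setting chosen after seeing the data, 7 of the 11 turned, and Ube2ql1, Bglap, Cpsf3 and Slc25a4 did not. In 10 of the 11 WT and TKO both lay on one side of SKO and STKO, above in 5 and below in 5, and 0 split by Trex1. The 8 with the largest opposed differences were Gdf10, Mmp10, Ube2ql1, Bglap, Chrd, Prss35, Cpsf3 and Slc25a4. Bglap, osteocalcin of bone matrix, read 7.67 and 6.81 in WT and TKO at 48 h, against 8.62 and 8.11 at 24 h (log2 levels), and in SKO and STKO it read 4.71 and 6.09 at 48 h, against 4.51 and 5.00 at 24 h. The secreted protease-like Prss35 differed by -0.57 and -1.38 in WT and TKO and by 1.07 and 0.21 in SKO and STKO. Bglap (adjusted p = 0.0518) and Prss35 (adjusted p = 0.0656) did not pass the test by STING status. Slc25a4, a mitochondrial carrier of ADP and ATP, differed by 0.28 and 1.03 in WT and TKO and by -1.63 and -0.14 in SKO and STKO, and Cpsf3, the nuclease of mRNA 3' end cleavage, by 1.07 and 0.12 and by -1.20 and 0.28. In these 2 genes the largest difference was that of SKO.

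For Trex1 status 0 genes (0%) were called in limma, with 170 probes at an unadjusted p under 0.05 and a smallest adjusted p of 0.99997. The list members with the smallest p were Aldh1a3, which makes retinoic acid (0.89 ± 0.24), Rps15a (0.76 ± 0.26), Cx3cl1 (0.68 ± 0.25), Egr3 (0.89 ± 0.35) and Cxcl14 (0.67 ± 0.27), given as log2 difference with Trex1 present minus absent. Aldh1a3 was lower at 48 h in every genotype, with differences of -1.36 in both TKO and STKO and of -0.52 and -0.42 in WT and SKO. It was called over all genotypes (-0.91 ± 0.19).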

How the data were processed

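RNA of 12 samples was read on Illumina MouseWG-6 arrays, and the 8 DMBA arrays were used. The authors deposited a signal intensity per probe on a linear scale and, beside it, a detection score, which per the values in the files runs as 1 minus the detection p-value. The authors' deposited value table holds log2 values centred per probe and served as an alternative. For the software behind these files, the name was not given in the sources used here.

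In R 4.3.3 with limma 3.58.1 the intensities were background-corrected from the detection p (normexp, offset 16), quantile-normalised and put on the log2 scale. Probes with detection p under 0.01 on at least 2 of 8 arrays were kept, 17558 of 45281. lmFit and eBayes tested time with genotype as a block (3 residual degrees of freedom), and time by STING or Trex1 status (2 residual degrees of freedom each). All tests were two-sided, and Benjamini-Hochberg adjustment ran over all tested probes with a threshold of 0.05. Values after ± are standard errors. The number of arrays limits the precision. Genotypes pair the arrays: deviations from the time means correlated at 0.501 to 0.714 within a genotype. On simulated data 99 of 100 probes changed by 1 on the log2 scale and 100 of 100 changed by 2 were recovered for time, and 73 and 100 of 100 for STING status, with 15 and 10 false calls. The simulated noise was independent between probes and arrays, so error shared by the probes of an array was not simulated.

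A gene is its brightest tested probe, named from the platform annotation. Symbols came from 34885 probes with 1 gene; 18 had several and 10378 none, and 34807 matched RefSeq by Entrez ID. The text names the 15 largest rises and falls, up to 5 called members per list by p, fixed readouts, the 6 largest STING differences each way, the 8 strongest turning genes and genes detected at one time. Other list members were named after their values were seen. The comparison, lists and tests were chosen with earlier results of these data known. Where a probe was detected on no array of a time, the bound sets the other time's mean against, per array, the higher of the lowest detected signal and the probe's own. Alternatives changed the normalisation, background, filter, offset, array set, block and genotypes.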

Additional observations from a re-analysis of the deposited data

Results flagged for a closer look

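In the test of the difference by STING status, 188 genes were called. The 12 largest were Nrcam (2.64), Loxl3 (2.22), Mmp10 (2.19), Crct1 (2.05), Ube2ql1 (1.90) and Dis3 (1.83), with the higher difference in WT and TKO, and Ednrb (-2.46), Gdf10 (-2.09), Chrd (-2.01), Smarca1 (-1.99), Adh1 (-1.98) and Gins1 (-1.94), with the higher difference in SKO and STKO, all on the log2 scale. Within 178 genes screened for 1 genotype far from the other 3, 3 were found. Chance flags about 1 in 20 groups of independent values, and most of these genes were chosen for agreement among the 4 genotypes. The 3 were Bnip3l in WT (0.31), Scd2 in SKO (-1.41) and Trem1 in TKO (-1.22), as log2 differences of 48 h minus 24 h.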

How the results depend on the processing

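For time, 1902 probes were called. The count was 1083 without the detection filter and 175 without the genotype as replicate block, and leaving out 1 genotype gave 187 to 1673. Other settings gave 1675 to 2260, within 1.5 times. For STING status, 332 probes were called, against 612 with all 12 arrays, 1595 with median scaling, 2063 without background correction, 2095 with the authors' deposited value table, 1407 for probes detected on all 8 arrays, 1757 with offset 50, 0 without the filter (7529 at an unadjusted p under 0.05 in limma) and 0 when any 1 genotype was left out (3422 to 4603 at an unadjusted p under 0.05). For Trex1 status it was 0 under every setting run. Genes that turn numbered 187 at 1.5-fold, against 11 at 2-fold and 7 at 2-fold with undetected values raised to the lowest detected level, a setting chosen after seeing the data. Genes detected at one time only numbered 12 at a detection p under 0.05, against 28. No named gene that was called changed direction under any setting run. The causes were not tested. Leaving out a genotype leaves fewer arrays and residual degrees of freedom. Low signals limit genes detected on few arrays.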
